A study of Caenorhabditis elegans with 9 samples.

Results

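The genes described here encode the proteins of the mitochondrial ribosome of *C. elegans*. They were chosen by symbol alone, as every gene named *mrpl-* (large subunit) or *mrps-* (small subunit) followed by a number. Of 70 such symbols in the reference annotation, 69 were matched to the 20541 genes of the files, 40 *mrpl* and 29 *mrps* genes, and *mrpl-42* was not matched. All 69 were expressed in every library and entered both comparisons, so no gene of the set was lost to the filter on low values.

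Mitochondria keep their own ribosome, which translates the few messages of the mitochondrial genome, in worms core subunits of the respiratory chain. Its proteins are encoded in the nucleus, made in the cytosol and imported, so their transcripts are made apart from the messages that the finished ribosome reads. Some of these proteins have counterparts in the bacterial ribosome, and others are found only in mitochondria. In worms, lowering *mrps-5* is known to induce the mitochondrial unfolded protein response and to extend lifespan.

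RNA of whole worms was sequenced in 9 libraries of 3 groups, 3 libraries each. The groups were WT (N2) worms exposed to the pathogen *P. aeruginosa* PA14, *egl-44(mt2247)* mutants on the standard food *E. coli* OP50, and WT worms on the same food. All 9 samples are given as 24 h at 25°C. In the study's methods, strains were kept on nematode growth media with OP50, and young adults were moved to 25°C for infection. These methods describe no sequencing of *egl-44* worms. *egl-44* encodes the TEAD transcription factor of worms. PA14 against OP50 in WT worms addresses the response to infection, and *egl-44* against WT on OP50 the effect of the mutation, which the marker levels given next limit. Both comparisons use the same 3 WT OP50 libraries. The labels do not say that the 3 libraries of a group came from separate cultures, and the study's methods give only a general statement that experiments were repeated, so the p-values measure the spread between these libraries, which may be technical. In RNA of whole worms, fewer cells of a type and less RNA per cell cannot be told apart.

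The values are FPKM, read counts scaled by transcript length and library total, so levels can be set side by side between genes. Library totals recovered from the steps between FPKM values were 13624881 to 17812865 reads. Each gene of the set had 223 to 5920 recovered reads in a library (median 612). For 50 of the 69 genes the length implied by these reads lay close to the annotated exon bases. For the others the read numbers are less sure. The *egl-44* libraries are labelled as adult worms, as the WT ones are, but their markers differed. The summed level of 15 oocyte and eggshell genes was 25.9 to 73.8 FPKM in *egl-44* worms, against 1434 to 3413 FPKM in WT worms on OP50, with 15 of 15 lower at an adjusted p under 0.05. The sum of the sperm genes was 25.6 to 275 FPKM in *egl-44* worms, against 14153 to 18858 FPKM in WT worms, with 44 of 44 tested genes lower. The 12 moulting genes summed to 1620 to 2485 FPKM in *egl-44* worms, against 62.2 to 616 FPKM in WT worms. Stage, germline content and genotype, and any difference in when the *egl-44* libraries were made, cannot be told apart here. The *egl-44* transcript had 32.5, 37.8 and 28.2 FPKM in *egl-44* worms, against 16.1, 21.5 and 16.0 FPKM in WT worms, so it was not lower in the mutant. Library 2 of PA14 stood apart from the other PA14 libraries, with correlations across genes between PA14 replicates of 0.870 to 0.964.

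The genes were expressed at moderate and similar levels. The group means of the 69 genes had a median of 49.5 FPKM in worms exposed to PA14, 46.4 FPKM in *egl-44* worms and 51.3 FPKM in WT worms on OP50. The highest mean of a group was 5.25 times the lowest in PA14 worms, 7.19 times in *egl-44* worms and 5.99 times in WT worms on OP50. The median was 47.9 FPKM for the large subunit and 53.9 FPKM for the small subunit in PA14 worms, 44.5 and 49.7 FPKM in *egl-44* worms, and 48.8 and 52.9 FPKM in WT worms on OP50.

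**Figure D1:**
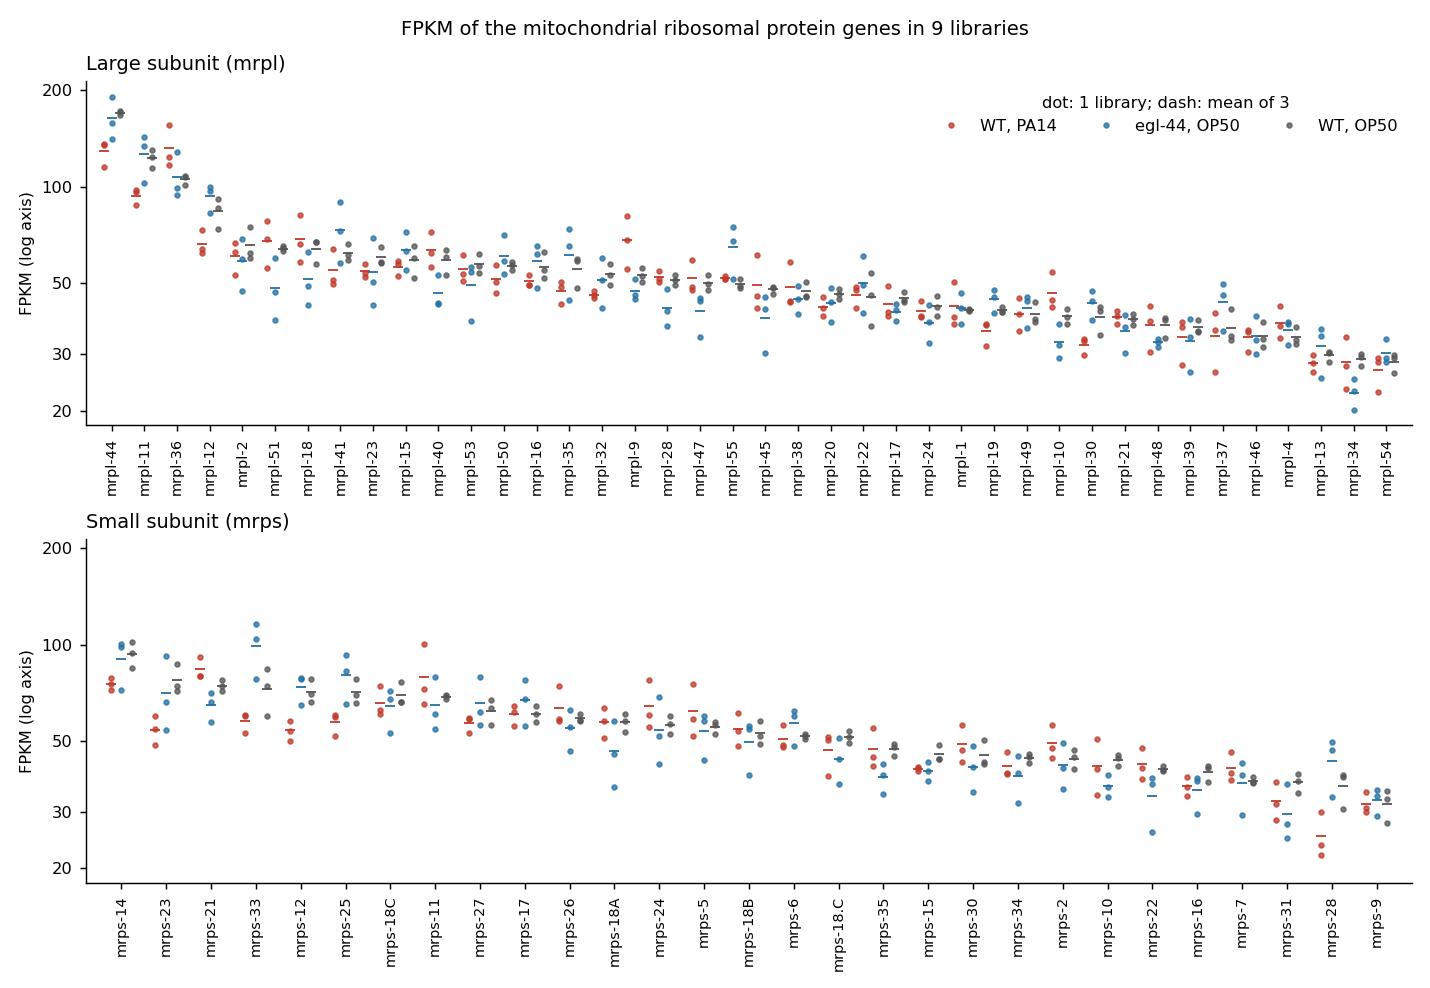
FPKM (log axis) of the 40 *mrpl* and 29 *mrps* genes, ordered by their mean in WT worms on OP50, with 1 dot for each of the 3 libraries of a group and a dash for the mean. Most genes lie between 30 and 80 FPKM in all 3 groups, with *mrpl-44*, *mrpl-11* and *mrpl-36* above them.

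The highest of them was *mrpl-44*, a large subunit protein with an RNase III-like fold. It had 129 ± 11.97 FPKM in PA14 worms, 164 ± 25.5 FPKM in *egl-44* worms and 170 ± 2.55 FPKM in WT worms on OP50 (SD, n = 3 each). It was followed in WT worms on OP50 by *mrpl-11*, of the base of the factor-binding stalk, at 123 ± 8.04 FPKM, *mrpl-36* at 106 ± 3.82 FPKM, *mrps-14* at 93.6 ± 8.79 FPKM and the stalk protein gene *mrpl-12* at 83.9 ± 9.11 FPKM. The lowest 5 were *mrpl-54* at 28.4 ± 1.95 FPKM, *mrpl-34* at 28.99 ± 1.32 FPKM, *mrpl-13* at 29.7 ± 1.13 FPKM, *mrps-9* at 31.8 ± 3.69 FPKM and *mrpl-4* at 34.0 ± 2.22 FPKM. Between these ends the order is not resolved, since only 2 of the 68 pairs of neighbours in it had WT OP50 libraries that did not overlap. The 5 highest genes of the 3 groups had 3 in common (*mrpl-44*, *mrpl-11* and *mrpl-36*), as did the 5 lowest (*mrpl-54*, *mrpl-34* and *mrpl-13*). *mrpl-36* was the highest of all in PA14 worms, at 132 ± 20.6 FPKM, within the spread of *mrpl-44* there.

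The summed FPKM of all 69 was 3452, 3977 and 3405 in PA14 worms, 3097, 3748 and 4169 in *egl-44* worms, and 3912, 3769 and 3656 in WT worms on OP50. The ranges of the 3 groups overlap. The large subunit summed to 1.37 ± 0.0311 times the small subunit in PA14 worms, 1.37 ± 0.0362 times in *egl-44* worms and 1.36 ± 0.0236 times in WT worms on OP50 (SD, n = 3 each). In the *egl-44* and PA14 groups 1 library held the highest or lowest value of most genes of the set. Within the *egl-44* group, library 1 held the lowest value of 65 of the 69 genes, against 31.9% of all genes, and library 3 the highest of 55, against 50.7% of all genes. Within the PA14 group, library 2 held the highest value of 56, against 52.3% of all genes. In WT worms on OP50 the highest values were spread over the libraries, 32, 22 and 15, and the lowest were 11, 20 and 38. The order of the genes varied too, since 11 of the 20 highest genes were shared by all 3 groups. The median SD of a gene between replicates, on the log2 scale, was 0.152 for the set and 0.370 for all genes in PA14 worms. It was 0.233 and 0.298 in *egl-44* worms, and 0.0905 and 0.253 in WT worms on OP50.

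The set was also placed beside the genes it works with. Its sum came to 25.4%, 34.8% and 24.9% of that of 42 nuclear respiratory chain genes in PA14 worms, 16.4%, 17.5% and 18.6% in *egl-44* worms, and 22.97%, 22.8% and 22.4% in WT worms on OP50. All 3 PA14 libraries were above and all 3 *egl-44* libraries below the 3 WT OP50 libraries. The corresponding share of the sum of 79 cytosolic ribosomal protein genes was 2.21%, 2.50% and 2.03% in PA14 worms, 1.49%, 1.52% and 1.74% in *egl-44* worms, and 1.96%, 1.90% and 1.92% in WT worms on OP50. Again the 3 groups did not overlap. These ratios do not change when each library is multiplied by a factor of its own, as in median-of-ratios scaling, and both parts of a ratio can move it. Quantile normalization can change them. Under it, the median log2 fold change in PA14 over OP50 was -0.22 for the set, -0.25 for the respiratory chain genes and 0.01 for the cytosolic ribosomal protein genes, so the order of the set and the cytosolic ribosome was turned round. In *egl-44* over WT it was 0.10, 0.25 and 0.00135, so the set lay above the cytosolic ribosome and below the respiratory chain.

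**Figure D2:**
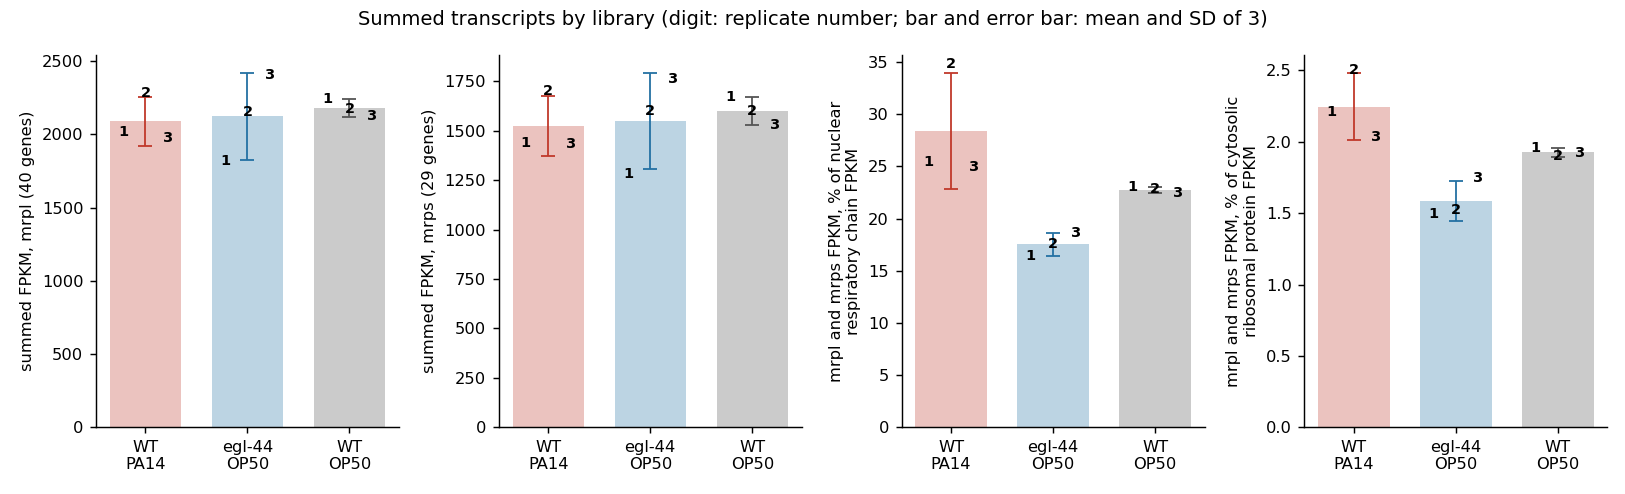
Summed FPKM of the *mrpl* and of the *mrps* genes, and the sum of both as a percentage of the sums of nuclear respiratory chain and cytosolic ribosomal protein genes. Digits are the replicate numbers of single libraries, and bars with error bars are the mean and SD of 3. The sums overlap between groups, while both percentages are highest in PA14 worms and lowest in *egl-44* worms.

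WT worms on OP50 are called OP50 worms in this comparison. In FPKM as given, the mitochondrial ribosomal protein genes of worms exposed to *P. aeruginosa* PA14 stayed close to their levels in OP50 worms. Their median log2 fold change, PA14 over OP50, was -0.05, against 0.25 for the 15760 genes tested. The fold changes ran between -0.52 and 0.35, with 27 genes above 0 and 42 below. The 95% interval of the fold change lay within 2-fold either way for 69 of 69 genes, against 37.2% of all genes, so a change of more than 2-fold lay outside every interval. None had a fold change over 2 at an unadjusted p under 0.05 (6.99% of all genes higher, 1.78% lower). None passed an adjusted p under 0.05 in limma (0.857% of all genes), and none with limma voom on the recovered reads. At an unadjusted p under 0.05, 0 were higher (15.7% of all genes) and 5 lower (4.63% of all genes). The number of lower genes, and the level of the set as a whole, depend on the scaling of the libraries. Median-of-ratios scaling gave 28, with 10% of all genes lower, and quantile normalization gave 20, with 8.78% of all genes lower. Under these scalings 67 and 63 of the 69 genes were below 0, with medians of -0.30 and -0.22. In FPKM as given, the number of lower genes was 3 without PA14 library 1 (3.1% of all genes) or without OP50 library 2 (2.08%). It was 2 without PA14 library 3 (11.1%). Without OP50 library 1 it was 1 (2.17%), and without OP50 library 3 it was 8 (4.66%).

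**Figure D3:**
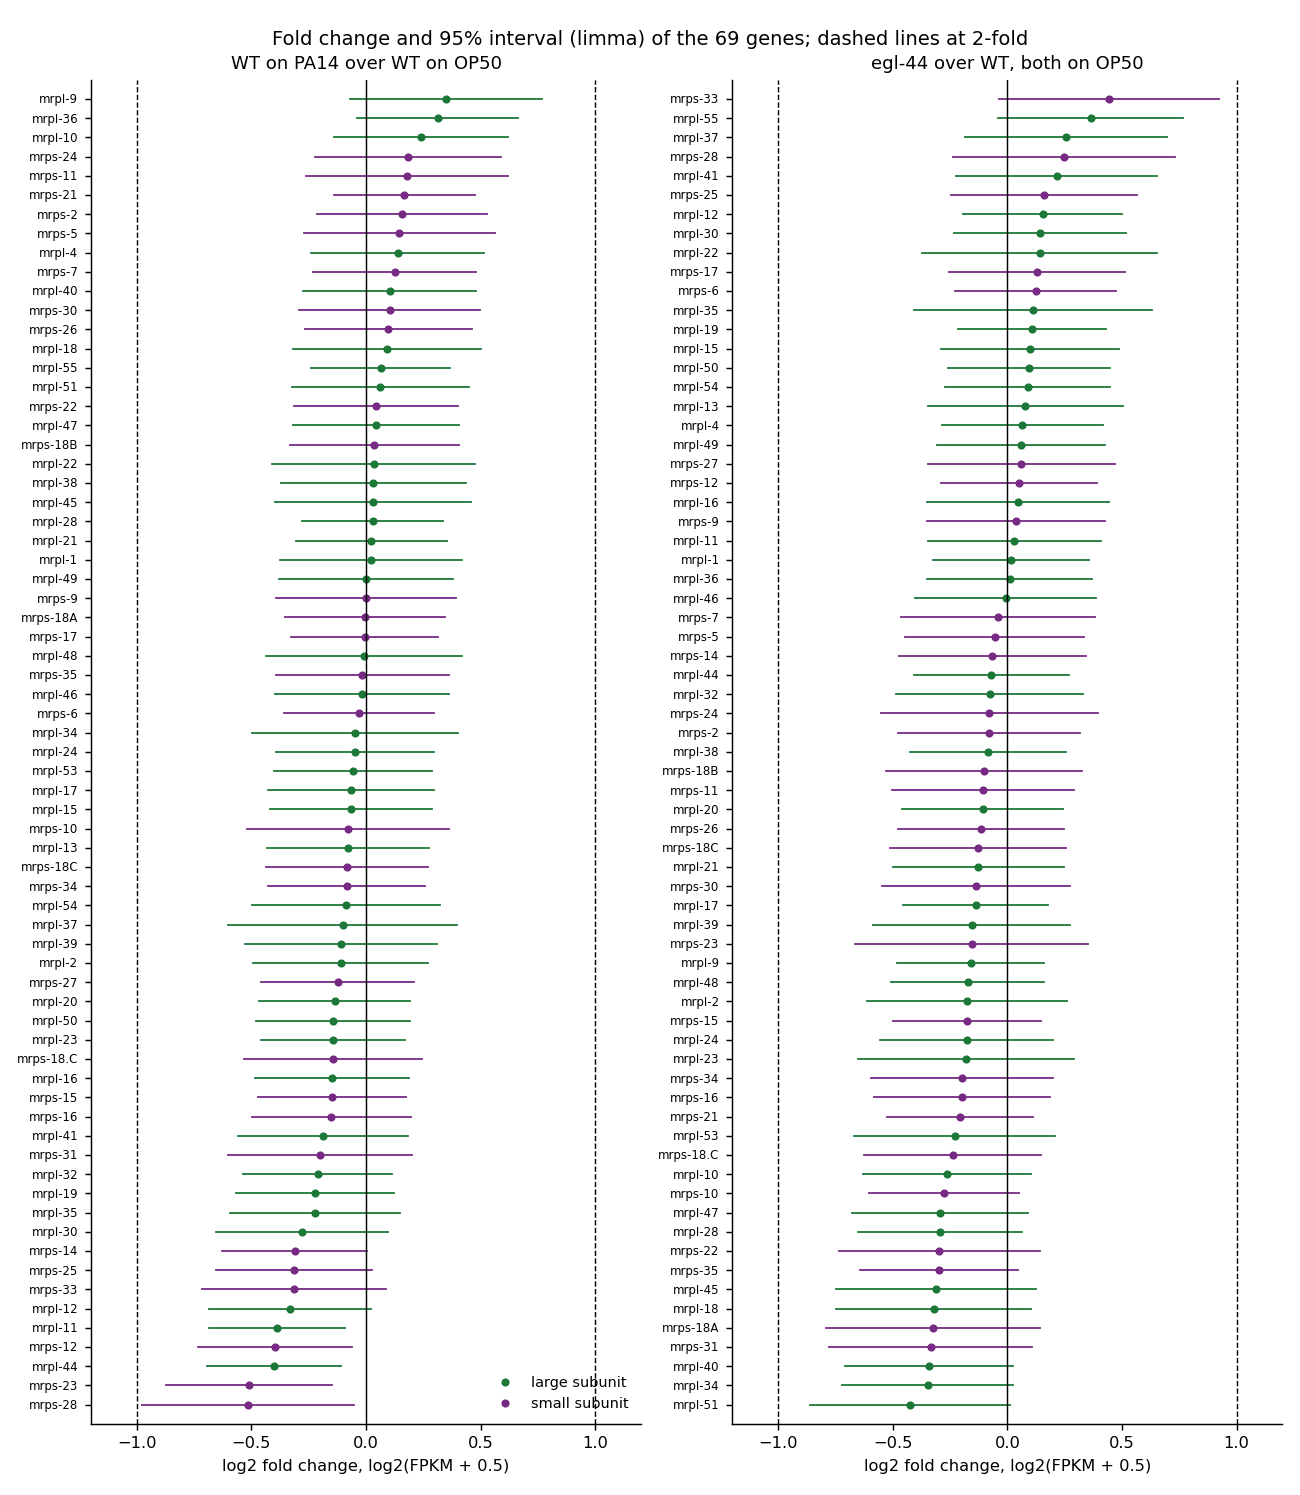
Log2 fold change (points) and 95% interval from limma (lines) of each of the 69 genes, on the log2(FPKM + 0.5) scale, in WT worms on PA14 over OP50 (left) and in *egl-44* over WT worms on OP50 (right), with genes ordered separately in each panel. All intervals lie inside the dashed lines at 2-fold, and 5 on the left lie wholly below 0.

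These 5 genes came from both subunits. *mrps-28*, of the small subunit, had 23.6, 29.96 and 22.01 FPKM in PA14 worms, against 39.1, 38.7 and 30.7 FPKM in OP50 worms. All 3 PA14 libraries were below the OP50 ones, though the highest PA14 and the lowest OP50 library lay close together. The log2 fold change was -0.52 (SE 0.19, adjusted p = 0.228). *mrps-23*, a small subunit protein without a bacterial counterpart, had 54.3, 59.7 and 48.6 FPKM in PA14 worms, against 86.7, 71.3 and 74.1 FPKM in OP50 worms. Its groups were well apart, with a log2 fold change of -0.51 (SE 0.15, adjusted p = 0.190). *mrps-12*, whose protein lines the decoding centre, had 50.04, 57.9 and 53.9 FPKM in PA14 worms, against 77.9, 69.8 and 66.0 FPKM in OP50 worms. These did not overlap either, with a log2 fold change of -0.40 (SE 0.14, adjusted p = 0.219).

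In the large subunit, the 2 most abundant transcripts of OP50 worms were the ones that were lower. *mrpl-44* had 136, 115 and 136 FPKM in PA14 worms, against 171, 168 and 172 FPKM in OP50 worms. The OP50 libraries were nearly equal and all PA14 libraries were below them, with a log2 fold change of -0.40 (SE 0.12, adjusted p = 0.193). *mrpl-11* had 96.1, 97.9 and 87.5 FPKM in PA14 worms, against 131, 115 and 124 FPKM in OP50 worms. The groups did not overlap, and the log2 fold change was -0.39 (SE 0.12, adjusted p = 0.202).

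Of the stalk, which recruits translation factors to the ribosome, the other genes beside *mrpl-11* did not pass. *mrpl-12* had 73.2, 61.9 and 64.0 FPKM in PA14 worms, against 91.8, 85.9 and 73.9 FPKM in OP50 worms, with a log2 fold change of -0.33 (SE 0.15, adjusted p = 0.259). *mrpl-10*, whose protein holds that of *mrpl-12* on the ribosome, had 44.2, 54.05 and 42.04 FPKM in PA14 worms, against 39.3, 37.2 and 41.7 FPKM in OP50 worms. The highest OP50 and the lowest PA14 library nearly met, and the log2 fold change of 0.24 (SE 0.16, adjusted p = 0.360) turned to -0.01 with median-of-ratios scaling. Among the other genes with a positive value, *mrpl-36* had 117, 156 and 124 FPKM in PA14 worms, against 101, 108 and 108 FPKM in OP50 worms. Library 2, which stood apart, was the highest, and the log2 fold change was 0.31 (SE 0.15, adjusted p = 0.270). *mrpl-9* had 55.4, 81.3 and 68.3 FPKM in PA14 worms, against 55.9, 52.5 and 50.4 FPKM in OP50 worms. It overlapped in 1 PA14 library, and its log2 fold change was 0.35 (SE 0.18, adjusted p = 0.285).

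In the small subunit, *mrps-33* and *mrps-25*, whose proteins have no bacterial counterpart, were among the next in size. *mrps-25* had 60.1, 59.5 and 51.7 FPKM in PA14 worms, against 78.0, 69.6 and 65.9 FPKM in OP50 worms. The groups did not overlap, and the log2 fold change was -0.31 (SE 0.14, adjusted p = 0.261). *mrps-33* had 53.1, 59.97 and 60.2 FPKM in PA14 worms, against 83.9, 74.0 and 59.8 FPKM in OP50 worms. It overlapped through the lowest OP50 library, with a log2 fold change of -0.31 (SE 0.17, adjusted p = 0.296). *mrps-5* had 51.9, 75.2 and 58.6 FPKM in PA14 worms, against 56.1, 57.4 and 52.4 FPKM in OP50 worms. Of the PA14 libraries, 1 was below all OP50 libraries and 2 were above them, library 2 by most, and the log2 fold change was 0.15 (95% interval -0.27 to 0.56, adjusted p = 0.588).

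By class, the median log2 fold change was -0.05 for the large and -0.03 for the small subunit. It was -0.05 for the 41 proteins numbered like those shared with bacteria and -0.04 for the 28 numbered as mitochondria-specific. The subunits follow the symbols, although in mammals the proteins MRPS18A and MRPS30 sit in the large subunit. In 13 genes all PA14 libraries were below all OP50 libraries (6.53% of all genes), and in 3, *mrpl-10*, *mrpl-36* and *mrps-21*, all were above (23.7% of all genes). Without PA14 library 2 the median was -0.13 against 0.18 for all genes. At an unadjusted p under 0.05, 6 genes were then lower (4.16% of all genes) and 0 higher (12% of all genes).

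Other genes of mitochondria were set beside them. Over all genes, 4.63% were lower and 15.7% higher at an unadjusted p under 0.05, the shares to set beside each list below. Under median-of-ratios scaling 10% of all genes were lower, and under quantile normalization 8.78%. Of 42 nuclear respiratory chain genes, 30 were lower and 0 higher at an unadjusted p under 0.05, with a median of -0.35. None of the 42 passed the adjusted p. Under median-of-ratios scaling 42 were lower (median -0.60), and under quantile normalization 18 (median -0.25). Of the 12 genes of the mitochondrial genome, whose messages the mitochondrial ribosome translates, 6 were lower and 0 higher, with a median of -0.39. Of these, *ND1*, of complex I, and the genes WBGene00010961 and WBGene00010967 fell at an adjusted p under 0.05, by 0.83, 1.14 and 0.88 on the log2 scale. The number that did was 2 under median-of-ratios scaling, 0 under quantile normalization and 1 without PA14 library 2. Of all genes, 0.857% passed the adjusted p in either direction, and 0.451%, 0.412% and 0.73% in those alternatives. Of 79 cytosolic ribosomal protein genes 56 were lower, with a median of -0.28, but with quantile normalization 0 were lower and the median was 0.01. Of 12 factors for the mitochondrial genome and its translation, the elongation factor gene *tufm-1* was lower (median -0.04), and 4 were lower under either other scaling. Of 11 import genes, *tin-10*, *tomm-22* and *tomm-40* were lower (median -0.12), and of 10 stress response genes the chaperonin gene *hsp-60* was (median 0.09), with 0 higher in each of these lists. Under median-of-ratios scaling 8 import genes and 3 stress response genes were lower, and under quantile normalization 3 and 2. *dap-3*, which encodes a small subunit protein (MRPS29 in mammals) but has another symbol, had 39.1, 52.5 and 46.6 FPKM in PA14 worms, against 49.7, 47.2 and 46.0 FPKM in OP50 worms. It overlapped widely (log2 fold change -0.06, SE 0.16, adjusted p = 0.821). Muscle genes, from a tissue rich in mitochondria, moved in the same direction as the respiratory chain, with 6 of 10 lower and a summed level of 4459 to 7678 FPKM in PA14 worms, against 8804 to 10025 FPKM in OP50 worms. Sperm genes did too, with 14 of 44 lower and 1 higher (median -0.71) and a sum of 5785 to 13639 FPKM in PA14 worms, against 14153 to 18858 FPKM in OP50 worms. Other marker lists differed, with medians of 0.63 for oocyte and eggshell (15 of 15 above 0), 0.57 for embryo (6 of 6) and 0.95 for moulting epidermis (8 of 12). The median was 0.14 for germline (6 of 11 above 0) and -0.29 for intestine (4 of 13). At an unadjusted p under 0.05 each of these lists had 1 higher gene, and germline also 1 lower. The part of tissue content in these values was not tested.

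In *egl-44* worms the mitochondrial ribosomal protein genes were among the genes that differed little from WT. At an unadjusted p under 0.05, 0 of 69 passed in either direction, against 64.6% of the 15488 genes tested (31.1% higher, 33.5% lower). None passed an adjusted p under 0.05 (57.8% of all genes) and none had a fold change over 2. Over all genes, 43.7% had one of that size, 17.9% higher and 23.4% lower at an unadjusted p under 0.05. The fold changes, *egl-44* over WT, ran between -0.42 and 0.45 on the log2 scale, with 26 genes above 0 and 43 below. Their median was -0.08, against 0.12 for all genes. The gap of 0.21 shrank to 0.03 when genes averaging under 5 FPKM were left out and to 0.09 without *egl-44* library 1. The 95% interval lay within 2-fold either way for 69 of 69 genes, against 22.7% of all genes. Changes smaller than these intervals can be neither called nor dismissed. With limma voom on the recovered reads 0 passed at either threshold. The direction of the set depends on scaling, since median-of-ratios scaling gave a median of -0.20 and quantile normalization one of 0.10. Under the first, 13 genes were lower at an unadjusted p under 0.05 (36.4% of all genes). At an adjusted p under 0.05, 6 were lower (56.2% of all genes in either direction). Under the second, 7 were higher (39.3% of all genes) and 2 passed the adjusted p (61.6% of all genes in either direction).

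**Figure D4:**
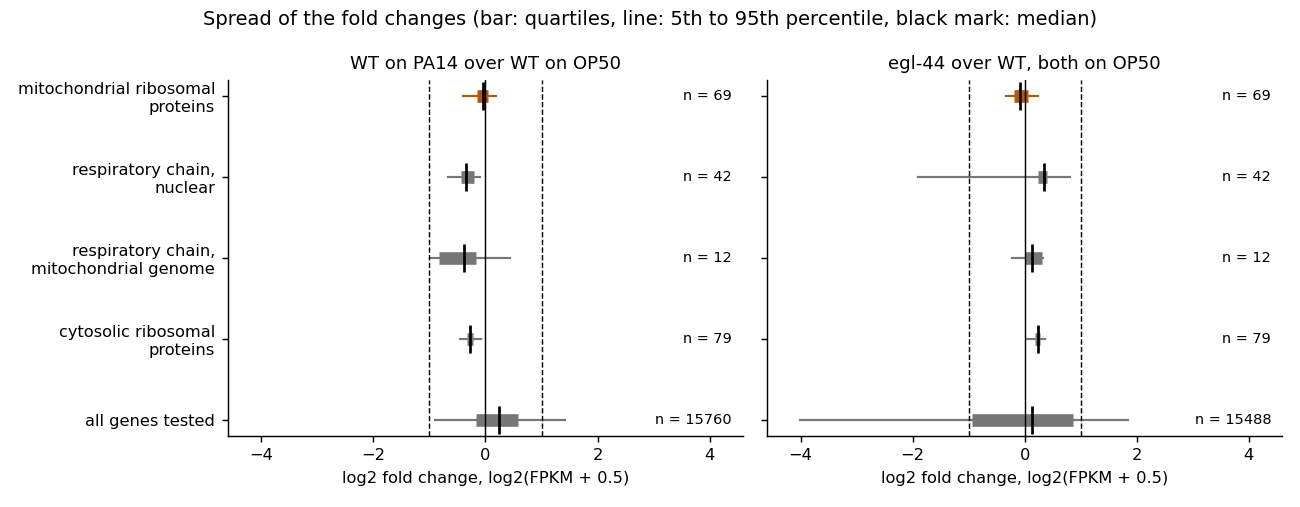
Spread of the log2 fold changes, on the log2(FPKM + 0.5) scale, of the mitochondrial ribosomal protein genes, 3 lists set beside them and all genes tested, in WT worms on PA14 over OP50 (left) and in *egl-44* over WT worms on OP50 (right). Bars give the quartiles, lines the 5th to 95th percentile, black marks the median and dashed lines 2-fold. The 69 genes sit near 0 in both, while the spread of all genes is wider, most so in *egl-44* worms.

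The largest positive value was that of *mrps-33*, of the small subunit. It had 78.2, 104 and 116 FPKM in *egl-44* worms, against 83.9, 74.0 and 59.8 FPKM in WT worms. The groups overlapped in 1 library each, with a log2 fold change of 0.45 (SE 0.20, adjusted p = 0.0946). In the large subunit, *mrpl-55* had 51.7, 67.9 and 74.7 FPKM in *egl-44* worms, against 48.4, 51.7 and 48.9 FPKM in WT worms. The lowest *egl-44* library met the highest WT library, and the log2 fold change was 0.36 (SE 0.17, adjusted p = 0.104). *mrpl-37* had 35.4, 46.0 and 49.7 FPKM in *egl-44* worms, against 41.6, 34.2 and 33.3 FPKM in WT worms. It overlapped too, with a log2 fold change of 0.26 (SE 0.18, adjusted p = 0.261). All 3 genes are numbered in the mitochondria-specific range, although the protein of *mrpl-55* is counted in mammals as a counterpart of bacterial L31.

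The largest negative value was that of *mrpl-51*, also of a mitochondria-specific protein. It had 38.5, 46.9 and 60.01 FPKM in *egl-44* worms, against 63.1, 64.2 and 65.2 FPKM in WT worms. The WT libraries were nearly equal and all *egl-44* libraries were below them, with a log2 fold change of -0.42 (SE 0.18, adjusted p = 0.0844). *mrpl-34*, a small protein with a bacterial counterpart, had 20.2, 25.1 and 23.01 FPKM in *egl-44* worms, against 27.5, 30.1 and 29.4 FPKM in WT worms. The groups did not overlap, and the log2 fold change was -0.35 (SE 0.16, adjusted p = 0.0939). *mrpl-40* had 43.2, 43.2 and 53.2 FPKM in *egl-44* worms, against 52.9, 60.3 and 63.5 FPKM in WT worms. One library of each group met, with a log2 fold change of -0.34 (SE 0.15, adjusted p = 0.0952). *mrpl-45*, whose protein in mammals anchors the ribosome to the inner membrane, had 30.2, 45.4 and 41.5 FPKM in *egl-44* worms, against 48.4, 46.4 and 48.8 FPKM in WT worms. The groups lay close without overlap, with a log2 fold change of -0.31 (SE 0.18, adjusted p = 0.177). *mrpl-18*, whose bacterial counterpart binds 5S rRNA, had 42.9, 49.1 and 62.7 FPKM in *egl-44* worms, against 67.2, 57.6 and 67.1 FPKM in WT worms. It overlapped, with a log2 fold change of -0.32 (SE 0.18, adjusted p = 0.156).

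Of the small subunit, *mrps-31* had 24.9, 27.5 and 36.6 FPKM in *egl-44* worms, against 37.5, 34.3 and 39.5 FPKM in WT worms. It overlapped through library 3 of *egl-44*, with a log2 fold change of -0.34 (SE 0.19, adjusted p = 0.158). *mrps-18A* had 35.99, 45.6 and 57.7 FPKM in *egl-44* worms, against 57.8, 60.7 and 53.4 FPKM in WT worms. Library 3 of *egl-44* again reached the WT range (log2 fold change -0.32, SE 0.20, adjusted p = 0.186). *mrps-35* had 34.1, 39.0 and 42.5 FPKM in *egl-44* worms, against 49.1, 45.0 and 47.9 FPKM in WT worms. It did not overlap, with a log2 fold change of -0.30 (SE 0.15, adjusted p = 0.115). *mrps-5* had 43.6, 57.6 and 59.7 FPKM in *egl-44* worms, against 56.1, 57.4 and 52.4 FPKM in WT worms. Its groups overlapped, with a log2 fold change of -0.06 (95% interval -0.45 to 0.33, adjusted p = 0.779). *mrpl-34*, *mrps-18A* and *mrps-35* share over 10% of their exon bases with another gene, and the sources used here do not say how such reads were counted.

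In 12 genes all *egl-44* libraries were below all WT libraries (35.6% of all genes), and in 0 were all above (34.1% of all genes). The median log2 fold change was -0.07 for the large and -0.10 for the small subunit. By number alone, it was -0.08 for the proteins numbered like those shared with bacteria and -0.10 for those numbered as mitochondria-specific. Since libraries 1 and 3 of *egl-44* lay at the ends for most genes of the set, each was left out in turn. Without library 3 the median was -0.19, with 9 genes lower at an unadjusted p under 0.05 (35.1% of all genes). At an adjusted p under 0.05, 6 were lower (58.6% of all genes in either direction). Without library 1 the median was 0.03, with 2 higher (25.1% of all genes). Of these, *mrpl-55* passed the adjusted p (41.7% of all genes in either direction). No gene passed 2-fold in either case.

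Some other mitochondrial genes did pass in the same worms. Of the 42 nuclear respiratory chain genes 23 rose and 3 fell at an adjusted p under 0.05, with a median of 0.35. These 26 of 42 stand beside 57.8% of all genes in either direction, so calls were about as common as over all genes. Those that fell were *ucr-2.3*, of complex III, *nduf-2.2*, of complex I, and *asb-1*, of the ATP synthase, by 2.76, 2.19 and 1.99 on the log2 scale. *asb-1* is known in worms as the germline form of its subunit, and it had 59.9, 32.6 and 110 FPKM in *egl-44* worms, against 245, 233 and 243 FPKM in WT worms. The number that rose was 7 under median-of-ratios scaling, 11 under quantile normalization and 10 without *egl-44* library 3. Of all genes, 56.2%, 61.6% and 58.6% passed there in either direction. Of the 12 factors for the mitochondrial genome and its translation, 5 fell at an adjusted p under 0.05 and 0 rose, beside 57.8% of all genes in either direction. They were *hmg-5*, which packages mitochondrial DNA, *polg-1*, its polymerase, *rpom-1*, the mitochondrial RNA polymerase, *mma-1* and *mtss-1*, the single-stranded DNA-binding protein. *twnk-1*, the mitochondrial DNA helicase, was higher by 0.91 at an unadjusted p under 0.05 (adjusted p = 0.0590). Under quantile normalization 3 of the list fell and 1 rose, and 2 fell without *egl-44* library 1. *hmg-5* fell by 1.12 and *polg-1* by 1.05 on the log2 scale, while *dap-3* was at 0.02 (SE 0.15, adjusted p = 0.909). Of 10 stress response genes, *met-2* and *lin-65*, of a chromatin pathway, fell by 1.11 and 1.10 on the log2 scale. *dve-1*, a homeodomain factor, rose by 0.88, all at an adjusted p under 0.05. These 3 of 10 stand beside 57.8% of all genes in either direction. Under median-of-ratios scaling 4 fell and 1 rose, under quantile normalization 2 fell and 2 rose, and without *egl-44* library 1 none rose. In the fit of all 6 libraries, *lonp-1* and *hsp-6* were lower by 0.44 and 0.43, at an unadjusted p under 0.05 only (adjusted p = 0.0553 and 0.0564). Of 79 cytosolic ribosomal protein genes 17 were higher (31.1% of all genes) and 3 lower (33.5% of all genes) at an unadjusted p under 0.05. Under either other scaling 2 were higher and 3 lower. The number higher was 56 without *egl-44* library 1 and 3 without library 3. The 3 lower genes of the fit of all 6 libraries were *rpl-42*, *rpl-11.1* and *rpl-25.2*. At an adjusted p under 0.05, 4 rose and 3 fell in that fit, beside 57.8% of all genes in either direction. The largest rises were those of *rpl-11.2* and *rpl-25.1*, by 1.42 and 1.16 on the log2 scale. None of 11 import genes or 12 genes of the mitochondrial genome passed an adjusted p under 0.05. Of the 12, 3 were higher at an unadjusted p under 0.05, and of the import genes 0. All 11 germline markers fell at an adjusted p under 0.05, with a summed level of 77.1 to 417 FPKM in *egl-44* worms, against 1138 to 1316 FPKM in WT worms. All 10 muscle markers rose, with a sum of 12769 to 15055 FPKM in *egl-44* worms, against 8804 to 10025 FPKM in WT worms. Of 13 intestine markers, 6 fell and 3 rose at an adjusted p under 0.05. Their median level was 9.19 to 13.9 FPKM in *egl-44* worms, against 228 to 342 FPKM in WT worms, while their sums overlapped. The part of any of these tissues in the values of the mitochondrial genes was not tested.

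In the genome (WBcel235, the build named in the submitters' processing notes) the 69 genes shared features that their symbols did not use. None lies on the X chromosome, which holds 13.6% of the 19585 protein-coding genes, and 22 of them (31.9%) lie on chromosome III, which holds 13.2%. Chromosomes I, II, IV and V hold 15, 12, 10 and 10 of them. In 28 of 69 (40.6%) the next gene upstream on the same strand ends under 500 bases away or overlaps, as it does in 20.4% of all protein-coding genes, 23.8% of the nuclear respiratory chain genes and 11.4% of the cytosolic ribosomal protein genes. Such spacing is typical of worm operons, whose genes are transcribed together, but operons themselves were not annotated here. One such pair lies within the set, since *mrpl-4* (V:8467265-8468943, + strand) starts 105 bases after the end of *mrps-2* (V:8465686-8467159, + strand). *mrps-5* (V:12563487-12565801, + strand) starts 103 bases after *sel-1*. The median log2 fold change was -0.07 for the 28 genes and -0.03 for the other 41 in PA14 worms, and -0.07 and -0.11 in *egl-44* worms. The exons of a gene of the set covered a median of 763 bases, against 1173 for all protein-coding genes. In 19 of the 69, some exon bases are shared with another gene.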

How the data were processed

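The authors deposited, for each of 9 libraries (3 groups of 3, NEBNext Ultra kit), a file of FPKM values of 20541 genes, scaled by transcript length and library total. The submitters' processing notes name TopHat2 2.0.12, Bowtie2 2.2.3, HTSeq 0.6.1, DESeq 1.18.0 and the build WBcel235. How reads shared by genes were treated, and the strand setting, is not given in those notes or the study's methods. The first step here was to match symbols and gene positions from the reference annotation of the same build (release 115), which gave a symbol for 19587 genes. Reads behind each value were recovered from the steps between low FPKM values. They cover counting error only.

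Values were put on the scale log2(FPKM + 0.5). Genes averaging 0.5 FPKM or more over the 6 libraries of a comparison were tested by limma 3.58.1 (R 4.3.3, lmFit, then eBayes allowing a trend), 15760 in PA14 against OP50 and 15488 in *egl-44* against WT. All p-values of genes are from this fit unless another is named, with Benjamini-Hochberg adjustment over all genes tested. Fold changes are on the log2(FPKM + 0.5) scale, which understates those of low genes. The steps were tested on simulated data, and figures were made with Python 3.11.15 and matplotlib 3.10.9.

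The genes and lists were chosen with earlier results of these data known. Named in each comparison were the 10 genes with the largest absolute log2 fold change, the 3 largest in the direction that fewer genes took, any that passed a threshold, and *mrps-5*. For levels, these were the 5 highest and 5 lowest in WT worms on OP50. Of other lists, some of the called genes were named. *mrps-21*, *dap-3*, the genes of other lists that passed only an unadjusted p, and genes described by position were named after their values were seen. Proteins up to *mrpl-36* and *mrps-21* in number were classed as shared with bacteria. Genes of the mitochondrial genome were taken by chromosome, since most have no symbol in the tables used. A search of promoters for a motif was planned and not run, and no sequences were used here.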

Additional observations from a re-analysis of the deposited data

How the results depend on the processing

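In PA14 worms no gene of the set passed an adjusted p under 0.05, and none was past 2-fold in either comparison, under any alternative run. These were 2 scalings (median-of-ratios, quantile), pseudocounts of 0.1 and 1 FPKM, a filter at a mean of 5 FPKM or none, limma voom, no trend, a replicate block, a joint fit of the 9 libraries, and leaving out each library. Scaling with PA14 library 2 left out was added after seeing the data. The genes lower at an unadjusted p under 0.05 in PA14 worms numbered 5, but 28 with median-of-ratios scaling, 20 with quantile normalization, 24 and 17 with the same scalings and PA14 library 2 left out, 2 without trend and 1 to 8 with a library left out (1 without WT OP50 library 1). Those higher numbered 0 to 1 with a library left out. The median was -0.30, -0.22, -0.32 and -0.26 under these 4 scalings. With them the median of all genes moved to 0.01, 0.03, -0.01 and -0.01, so the set stayed 0.25 to 0.32 below it.

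Median-of-ratios scaling turned *mrpl-10* to -0.014 and *mrps-5* to -0.11, and with library 2 left out *mrpl-36* to -0.0070, *mrpl-10* to -0.063 and *mrps-5* to -0.20. Quantile normalization gave *mrps-5* -0.0028, and with library 2 left out -0.11, with *mrpl-10* at -0.0058. With a library left out, *mrps-5* lay between -0.0024 and 0.26.

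In *egl-44* worms 13 genes were lower with median-of-ratios scaling (36.4% of all genes), 0 to 9 with a library left out (29.8% to 35.1%). Higher were 7 with quantile normalization (39.3%), 2 in the fit of all 9 libraries (29.5%) and 0 to 2 with a library left out (25.1% to 30%). Adjusted calls numbered 6 with median-of-ratios scaling, 2 with quantile normalization and 0 to 6 with a library left out. Over all genes they made up 56.2%, 61.6% and 41.7% to 58.6%. The median was 0.10 with quantile normalization and -0.19 to 0.03 with a library left out. *mrps-5* was at 0.12 with quantile normalization and between -0.14 and 0.085 with a library left out. The median of all genes moved to 0.01 and 0.31 under the 2 scalings, and the set stayed 0.21 below it. The median of the set minus that of all genes was -0.03 with a mean of at least 5 FPKM. It was -0.09 without *egl-44* library 1 and -0.27 without library 3.

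The labels do not say whether replicate numbers pair the libraries. Correlations of same-numbered deviations were -0.55 to -0.19 for PA14 and 0.06 to 0.09 for *egl-44*. Those of other numbers were -0.31 to 0.49 and -0.19 to 0.20. With 3 libraries per group these values do not settle whether a number marks a shared batch. With a replicate block, 0 genes were lower in PA14 worms (2.94% of all genes) and 1 in *egl-44* worms (33.5% of all genes). The 95% intervals within 2-fold numbered 65 to 69 of 69 over all alternatives. The cause of these moves was not tested. With 3 libraries per group, the median half-width of these intervals was 0.36 in PA14 and 0.39 in *egl-44* worms on the log2 scale. For a gene of that width, a smaller change would not pass an unadjusted p under 0.05. In simulated data, where few genes changed, 81% (PA14) and 76% (*egl-44*) of 100 2-fold changes passed an unadjusted p under 0.05. An adjusted p under 0.05 was passed by 25% and 20%. The changed genes there were drawn from all genes above a low level, not from the set. The set had a smaller median SD between replicates than all genes, so these shares do not give those of the set.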
